A study of Mus musculus with 2 samples.

Results

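Chromatin accessibility was profiled by ATAC-seq in late retinal progenitor cells (RPCs), which still divide in the retina of newborn mice, and the peaks described here are those that stood among the strongest 5% of both libraries and lay away from promoters. ATAC-seq uses the Tn5 transposase, which cuts and tags DNA that is not wrapped in nucleosomes, so that fragments pile up where chromatin is open. Control late RPCs had received a control plasmid and Ngn3-OE late RPCs a plasmid for overexpression of Neurog3, a proneural basic helix-loop-helix (bHLH) transcription factor. Both plasmids marked the cells with GFP and were introduced into the retina of living pups by electroporation at postnatal day 1. GFP+ cells were sorted 2 days later, and 50000 cells went into each library. Each group was 1 library, and the number of animals behind it is not given in the sources used here. Electroporation reaches the cells that lie at the subretinal space, so the sorted cells are transfected cells and their progeny and not the whole retina. By staining for a marker of dividing cells, the paper found only part of the GFP+ cells dividing at that age. That part was smaller in Ngn3-OE than in control.

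Peaks were chosen on their measured strength. For each control peak, 1 row was kept per interval, with its highest summit. The summit had to lie more than 3 kb from every transcript start of the GENCODE M21 annotation of mm10 (GRCm38), and the fold enrichment at the summit, the pileup of tags over the local background, had to be in the top 5% of the control list. The interval also had to overlap, by at least 1 bp, an Ngn3-OE interval in the top 5% of the Ngn3-OE list. In all, 827 of 117165 control intervals passed, which is 1.11% of the 74637 distal control intervals. Among control intervals within 3 kb of a start, 8.96% were strong in both libraries, 3809 intervals in all. The selection fixed the fold enrichment and everything that follows from it, so the strength of these peaks is described below and not tested.

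Distal open chromatin holds enhancers, stretches of DNA where transcription factors bind and act on promoters at a distance, and insulator sites bound by CTCF, the zinc-finger protein that anchors chromatin loops. In the retina, OTX2 and CRX are homeodomain factors of photoreceptor and bipolar precursors, and both recognise the core GGATTA. SOX factors act in progenitors and Müller glia and recognise ATTGT. Proneural bHLH factors bind E-boxes, of which CATCTG is a form used by the neurogenins. SP and KLF factors bind the GC box GGGCGG, which is typical of promoters. A match to such a core is a description of the letters in a window and does not show that a factor was bound.

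Sequences of 121 bp around the control summit are printed for peaks that carry the features compared below, 5′ to 3′ on the + strand of GRCm38. The peak nearest to Lmbrd1 (chr1:24699475-24699595, intron) had the highest fold enrichment of both lists and is shown for its repeated structure. Those near Gng10 (chr4:59069407-59069527, intron), Ckap5 (chr2:91537666-91537786, intron), Phlda3 (chr1:135753088-135753208, intergenic), Sphkap (chr1:83662286-83662406, intron) and Rwdd3 (chr3:120982899-120983019, intergenic) were the first in rank with a match inside the printed stretch. The Gng10 and Sphkap peaks lay outside the gene named, in an intron of another annotated gene. Capitals mark 2 OTX/CRX cores and 1 CATCTG E-box in Gng10, 2 GC boxes in Ckap5, the CTCF consensus in Phlda3, 2 SOX cores in Sphkap and a pair of homeodomain half-sites in Rwdd3, on either strand. Not every match is in capitals: the Sphkap stretch also holds an OTX/CRX core in lower case.
Lmbrd1: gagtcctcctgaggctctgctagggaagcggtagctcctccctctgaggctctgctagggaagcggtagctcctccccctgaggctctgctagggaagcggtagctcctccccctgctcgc
Gng10: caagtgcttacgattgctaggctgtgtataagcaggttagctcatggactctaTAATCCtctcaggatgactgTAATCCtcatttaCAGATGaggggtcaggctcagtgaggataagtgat
Ckap5: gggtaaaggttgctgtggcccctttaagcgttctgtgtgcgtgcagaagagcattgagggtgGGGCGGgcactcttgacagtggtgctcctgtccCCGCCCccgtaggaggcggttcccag
Phlda3: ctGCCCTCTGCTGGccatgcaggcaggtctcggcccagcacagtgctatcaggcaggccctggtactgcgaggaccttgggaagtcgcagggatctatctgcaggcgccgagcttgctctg
Sphkap: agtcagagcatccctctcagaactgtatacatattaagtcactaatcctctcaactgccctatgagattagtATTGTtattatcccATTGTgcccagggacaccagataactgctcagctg
Rwdd3: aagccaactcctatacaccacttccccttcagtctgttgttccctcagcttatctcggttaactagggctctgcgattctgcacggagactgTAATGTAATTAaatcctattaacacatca

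A further pair is shown for base composition and for a gene of the tissue. The Rab28 peak (chr5:41685158-41685278, intron) had the lowest GC of all, and its capitals mark an OTX/CRX core. The Dll1 peak (chr17:15343144-15343264, intergenic) lay near the gene of a Notch ligand and was picked after its values were seen. Its capitals mark a CATCTG E-box.
Rab28: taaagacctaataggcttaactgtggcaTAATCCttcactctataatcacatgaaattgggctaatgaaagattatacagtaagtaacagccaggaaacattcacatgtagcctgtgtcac
Dll1: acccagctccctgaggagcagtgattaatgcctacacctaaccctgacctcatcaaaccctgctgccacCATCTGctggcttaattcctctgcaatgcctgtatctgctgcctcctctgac

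The lists as a whole were alike in size and strength. The control list held 117165 distinct intervals and the Ngn3-OE list 124935, and the median pileup was 9 tags in each. The limit of the top 5% was a fold enrichment of 24.0 in control and 24.3 in Ngn3-OE, and every interval past it had at least 30 tags at its summit. All 9 RPC marker genes reported here, among them Rax and Pax6, had a peak within 1 kb of a start in both libraries, as had 7 of 20 genes of other tissues in control and 6 of 20 in Ngn3-OE. None of the RPC marker peaks was in the top 5% of either list. Shares below carry 95% Wilson intervals and differences of shares 95% Newcombe intervals. With 1 library per group they cover counting error only, peaks close to each other are not independent, and no p-value is given.

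Strong distal peaks of the control library were mostly strong in the Ngn3-OE library too. Of the 1252 distal control peaks in the top 5%, 827 had a strong Ngn3-OE partner, or 66.1%, against 82.7% of the 4607 strong control peaks near a start. The other 425 are called control-strong distal peaks. Each of them overlapped some Ngn3-OE peak, whose median fold enrichment was 20.7, with a lowest value of 5.57 and a median rank percentile of 92.2 in the Ngn3-OE list. In Ngn3-OE, 1685 distal peaks were in the top 5%, and 858 of them overlapped no strong control peak and are called Ngn3-OE-strong. Distal peaks made up 21.4% (20.3 to 22.4) of the top 5% of the control list and 27.0% (25.9 to 28.1) of that of the Ngn3-OE list. The remaining 73385 distal control peaks are called weaker distal peaks.

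Fold enrichment of the 827 peaks ran from 24.0 to 56.6 in control with a median of 27.9, and from 24.4 to 57.0 in Ngn3-OE with a median of 29.6. The median pileup was 55 tags (31 to 222) in control and 62 tags (31 to 187) in Ngn3-OE, against 7 tags in weaker distal peaks. Tags were more numerous in Ngn3-OE at 68.1% of the peaks, and the rank percentile was higher there at 59.9%. The median change in rank percentile was 0.350, with quartiles of −0.594 and 1.29. Just inside the control limit lay peaks near Nrxn3 (24.008) and Plxnc1 (24.018), and just outside it peaks near Zfp395 (23.9932) and Nos1ap (23.989). Just inside the Ngn3-OE limit lay peaks near Pabpc1 (24.3852) and Zdhhc14 (24.4126), and just outside it peaks near Fgf20 (24.3394) and Sbpl (24.3246). Peaks on both sides of the limits thus differed by less than 0.1 in fold enrichment, and membership at the edge rests on small differences.

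**Figure D1:**
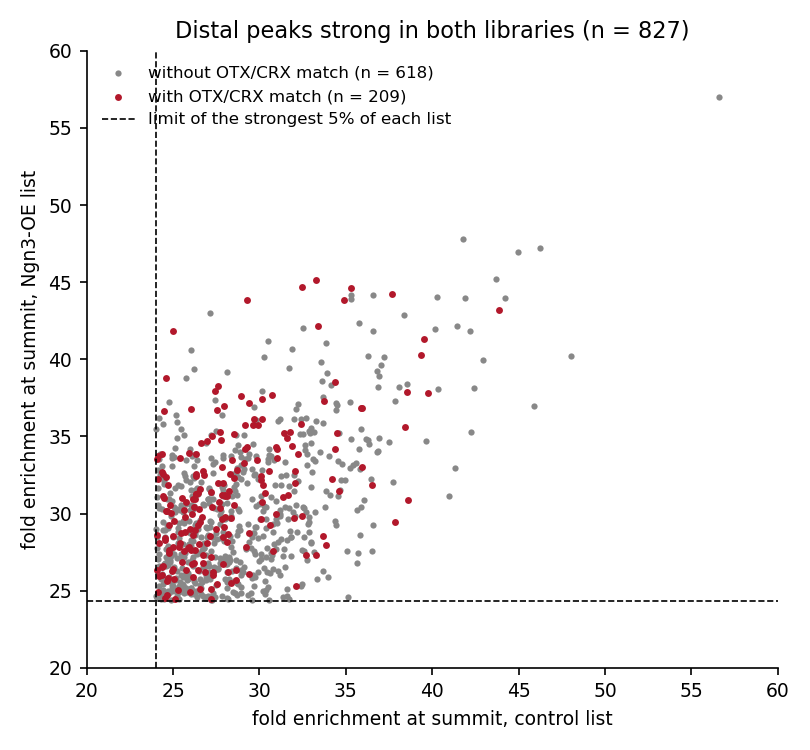
Fold enrichment at the summit in the control list (x axis) and in the Ngn3-OE list (y axis) for the 827 peaks, 1 point a peak, red where the 201 bp window held an OTX/CRX core (209 peaks) and grey where it did not (618 peaks). Dashed lines are the limits of the top 5%, 24.0 and 24.3, and the Lmbrd1 peak is the single point at the upper right.

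The peaks first in rank were not near genes known for the retina. The highest, in an intron of Lmbrd1, a gene of lysosomal cobalamin export, had a fold enrichment of 56.6 in control and 57.0 in Ngn3-OE, with 110 and 114 tags. In order of the lower of both rank percentiles it was followed by peaks nearest to Sf3b5 (46.2 and 47.2), a subunit of a splicing factor, Ric8b (44.9 and 46.9), a chaperone of G proteins, and Snrpn (43.7 and 45.2), an imprinted splicing gene. The first peak stood well apart from these in both lists. Phlda3 (44.2 and 44.0), an inhibitor of Akt, and Gng10 (43.8 and 43.2), a G protein gamma subunit, came next. The rest of the first 12 were nearest to Osbpl1a (41.9 and 44.0), Lsm8 (41.8 and 47.8), Slc35c1 (41.4 and 42.1), Yy1 (42.2 and 41.8), Fam69b (40.3 and 44.0) and Ptchd3 (40.2 and 42.0). All 12 had 1 summit in each library.

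Some of these top peaks held tandem repeats or had copies elsewhere. The printed Lmbrd1 stretch was 87.2% identical to itself when moved by 35 bp, so the same unit runs through it in tandem. Over the full window of 201 bp, 5 of the 827 peaks were at least 80% identical to themselves at a shift of 10 to 60 bp, or 0.605% (0.259 to 1.41), against 92 of 73385 weaker distal peaks, or 0.125% (0.102 to 0.154). The share was 0.235% (0.0415 to 1.32) in control-strong and 0.233% (0.0639 to 0.846) in Ngn3-OE-strong peaks, and both intervals overlapped that of the shared peaks. The 5 were the peaks nearest to Osbpl1a (45 bp, 92.3%), Fam69b (40 bp, 82.6%), Alox8 (43 bp, 96.2%), Srbd1 (52 bp, 89.3%) and Mbp (50 bp, 84.1%). Osbpl1a and Fam69b were among the first 12 in rank. This measure was added after the Lmbrd1 sequence had been seen. Copies elsewhere in the genome, at 95% identity over 90% of the interval, were found for 12 peaks, or 1.45% (0.832 to 2.52), against 3 of 858 Ngn3-OE-strong peaks, or 0.350% (0.119 to 1.02), a difference of 1.10 points (0.187 to 2.19). Against control-strong peaks the difference was 1.22 points, and its interval held 0 (−0.0337 to 2.301). The Ric8b peak had 3 copies and the Snrpn peak 2, the Batf3 peak 12 and the Dnah7b peak 15, each counted with the peak itself. How reads from repeated or copied sequence entered the pileup was not tested. Windows made up mostly of bases masked in the reference, whatever the kind of repeat, were rare. Over 50% of the window was masked in 7 peaks, or 0.846% (0.411 to 1.74), against 3.98% of weaker distal peaks. The share was 0.471% in control-strong and 1.28% in Ngn3-OE-strong peaks, and the intervals of both differences held 0 (−0.928 to 1.33 and −1.53 to 0.619).

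Some peaks called distal by GENCODE lay at transcript starts of another annotation. A RefSeq transcript start lay within 500 bp of the summit of 36 peaks, or 4.35% (3.16 to 5.97), against 1.75% (1.66 to 1.85) of weaker distal peaks, 1.88% of control-strong and 1.75% of Ngn3-OE-strong peaks. The difference from weaker distal peaks was 2.60 points (1.40 to 4.22). Among the first 12, the Sf3b5 peak lay 76 bp from a RefSeq start of Sf3b5 itself, and the Yy1 peak 73 bp from that of the predicted RNA Gm33628. The Ckap5 peak with its pair of GC boxes lay 62 bp from a predicted start of Ckap5. Windows rich in CpG, with at least 55% GC and an observed over expected CpG ratio of at least 0.6, numbered 77, or 9.31% (7.51 to 11.5), against 2.10% (2.001 to 2.21) of weaker distal peaks and 3.85% of Ngn3-OE-strong peaks.

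Peaks strong in both libraries were wide and held mostly 1 summit. Their median width in control was 239 bp (quartiles 195 and 298.5, range 96 to 619), that in Ngn3-OE 246 bp (200 and 303, range 76 to 642), against 121 bp for weaker distal peaks, 230 bp for control-strong and 226 bp for Ngn3-OE-strong peaks. Width comes from the same peak call as the fold enrichment that chose the peaks, so it is given with no test. In control, 750 peaks had 1 summit, 69 had 2 and 8 had 3. More than 1 summit was thus present in 9.31% (7.51 to 11.5) of peaks in control and 9.67% (7.84 to 11.9) in Ngn3-OE, and 41 peaks, or 4.96%, had several summits in both. Among weaker distal peaks 4.87% had several summits, among control-strong peaks 12% and among Ngn3-OE-strong peaks 8.62%. The widest peak, nearest to Arhgap12, a regulator of small GTPases, was 619 bp wide with 3 summits in control, and 642 bp wide with 2 in Ngn3-OE. The peak nearest to Cdk6, a kinase of the G1 phase of the cell cycle, held 3 summits in each library over 552 and 534 bp.

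The position of the summit hardly moved between the libraries. The median distance between the control and the Ngn3-OE summit was 8 bp, with quartiles of 3 and 16 bp. Both summits fell on the same base in 39 peaks, within 10 bp in 507, or 61.3% (57.9 to 64.6), and within 50 bp in 812, or 98.2% (97.0 to 98.9). The largest distance, 111 bp, was at a peak nearest to Gm9747 with 2 summits in each library. The peak was wider in Ngn3-OE in 484 cases and narrower in 320, with a median change of 5 bp, and both ends were the same in 10.

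**Figure D2:**
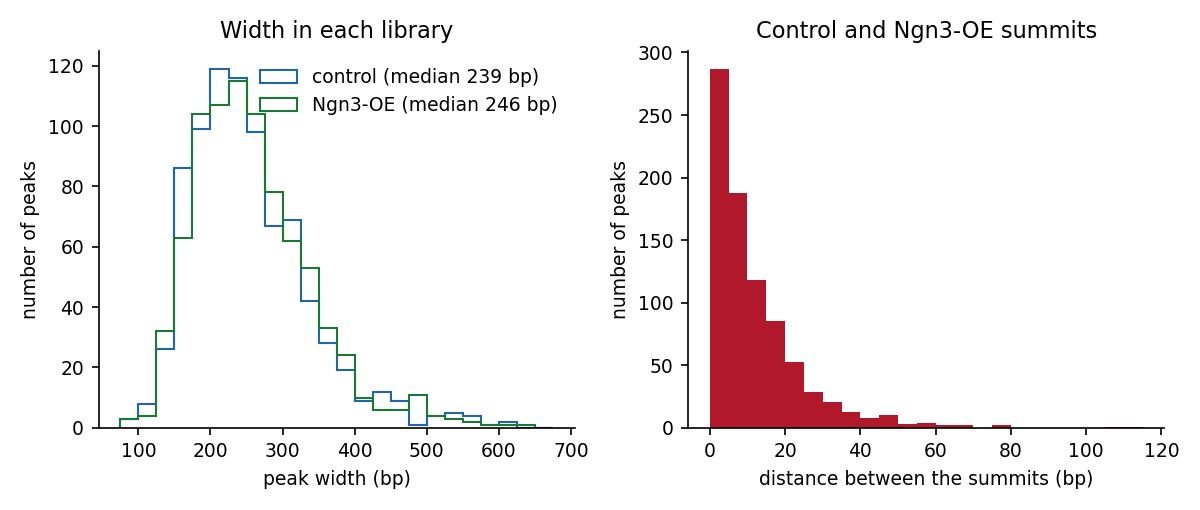
Left, number of peaks by width in bp (bins of 25 bp) in the control (blue) and Ngn3-OE (green) libraries, with medians of 239 and 246 bp. Right, number of peaks by the distance in bp between their control and Ngn3-OE summits (bins of 5 bp), most of which lay under 20 bp.

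In base composition the strong shared peaks resembled other distal peaks more than promoters. Median GC of the 201 bp window was 52.7% (95% interval of the median 52.2 to 53.2), against 49.3% for weaker distal peaks, 51.7% (50.7 to 52.2) for control-strong, 50.7% (50.2 to 51.2) for Ngn3-OE-strong and 63.7% for strong shared peaks near a start. The observed over expected CpG ratio had a median of 0.266 (0.248 to 0.281), against 0.221 for weaker distal, 0.263 for control-strong, 0.213 (0.198 to 0.233) for Ngn3-OE-strong and 0.790 for strong promoter peaks. GC ranged from 34.3% at the Rab28 peak, whose sequence is printed above, to 76.6% at a peak nearest to Elovl5, a fatty acid elongase. The Rab28 peak had a fold enrichment of 24.5 in control and 31.0 in Ngn3-OE, and the Elovl5 peak 27.3 and 33.2. The 77 CpG-rich peaks were wider than the other 750, with a median of 284 against 236 bp, and lay closer to a protein-coding start, at a median of 13.1 against 28.2 kb. Windows without any masked base made up 60.3% (57.0 to 63.6), against 48.5% of weaker distal peaks. The share was 55.3% in control-strong and 57.0% in Ngn3-OE-strong peaks, and the intervals of both differences held 0 (−0.708 to 10.8 and −1.36 to 8.02).

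**Figure D3:**
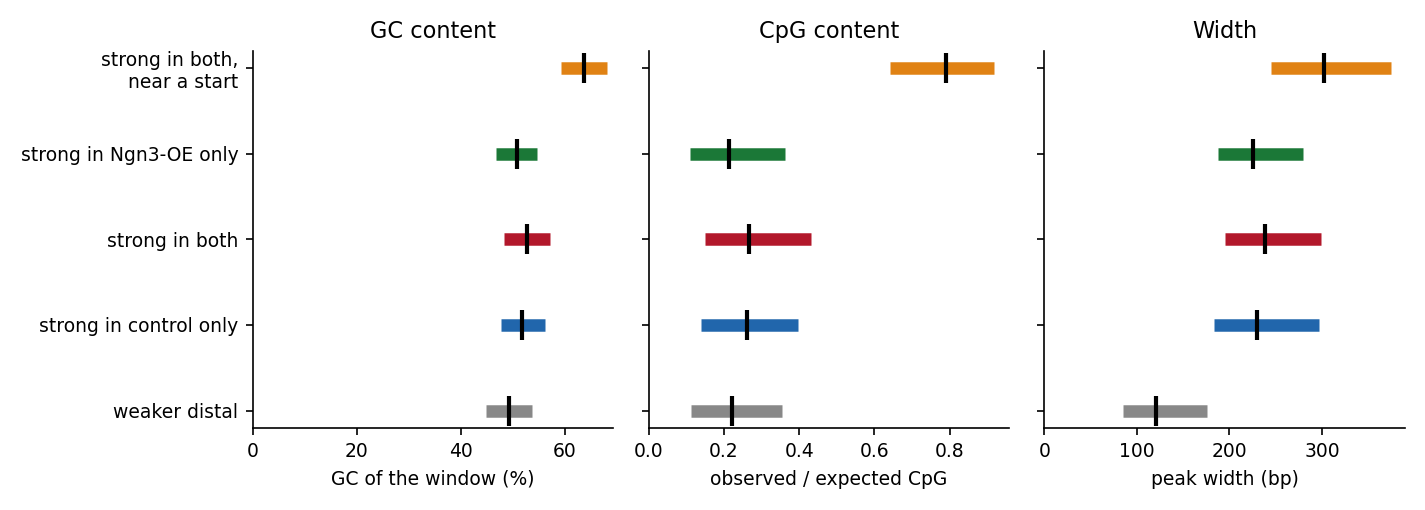
GC of the window (%), observed over expected CpG and peak width (bp) in 5 sets of peaks. Bars run from the first to the third quartile and black ticks mark medians, and "only" in the labels means without a strong partner in the other list. GC of distal peaks strong in both libraries centred on 52.7%, near the other distal sets, while strong peaks near a start centred on 63.7%.

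OTX/CRX cores set the distal sets apart. GGATTA was found on either strand within 100 bp of the summit in 209 of 827 strong shared peaks, or 25.3% (22.4 to 28.3). The share was 16.8% (16.5 to 17.1) in weaker distal peaks, 10.4% (7.80 to 13.6) in control-strong peaks, 36.4% (33.2 to 39.6) in Ngn3-OE-strong peaks and 3.91% in strong promoter peaks. Over all control peaks it was 13.9%. Shared peaks exceeded weaker distal peaks by 8.48 points (5.62 to 11.6) and control-strong peaks by 14.9 points (10.6 to 18.9), and fell below Ngn3-OE-strong peaks by 11.1 points (the difference was −11.1, from −15.4 to −6.69). The 3 sets of strong distal peaks thus stood in the order control-strong, shared, Ngn3-OE-strong, with no overlap of their intervals. Windows with the core had a median GC of 49.3% and those without 53.7%, so the comparison was repeated in bands of GC. Below 50% GC the excess over weaker distal peaks was 18.4 points (12.9 to 24.2), and at 50% or more it was 6.09 points (3.08 to 9.55). Against Ngn3-OE-strong peaks the difference was −6.13 points below 50% GC, with an interval that held 0 (−13.5 to 1.43), and −11.1 points (−16.3 to −5.93) at 50% or more. In the top 1%, which left 72 peaks, the intervals of the differences from weaker distal (3.99 points, −3.80 to 14.7) and control-strong peaks (2.65 points, −13.2 to 16.5) held 0.

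Peaks with an OTX/CRX core were wider and had more tags in Ngn3-OE, by median, than those without. At least 2 cores, as in the Gng10 sequence above, were present in 41 peaks, or 4.96%, against 2.26% of weaker distal peaks. The 209 peaks with a core had a median width of 258 bp in the control list and of 269 bp in the other, and the 618 without one 234 and 234.5 bp. Median tags were 55 in control and 70 in Ngn3-OE with a core, and 54.5 and 59 without. The rank percentile was higher in Ngn3-OE for 159 of 209 peaks with a core (76.1%) and for 336 of 618 without (54.4%). As ranks chose the peaks, these last values are a description. Cores gathered about the summit, at a median distance of 34 bp, with 69.9% of matches within 50 bp. In weaker distal peaks they lay no farther from it, at a median of 30.5 bp, with 70.8% within 50 bp.

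SOX cores were scarcer in strong shared peaks. ATTGT was found in 179 peaks, or 21.6% (18.97 to 24.6), against 30.3% (29.9 to 30.6) of weaker distal peaks, a difference of −8.63 points (−11.3 to −5.68). It was found in 28.9% (24.8 to 33.4) of control-strong peaks, a difference of −7.30 points (−12.5 to −2.25), and in 24.7% (21.9 to 27.7) of Ngn3-OE-strong peaks, a difference whose interval held 0 (−7.08 to 0.971) but lay below 0 with the starts of the basic GENCODE set (−7.61 to −0.0368), with protein-coding starts only, beyond 1 kb of a start and in windows at the Ngn3-OE summit. The deficit against weaker distal peaks was −6.33 points (−11.5 to −0.720) below 50% GC and −4.56 points (−7.46 to −1.19) at 50% or more. Of the matches, 41.4% were within 50 bp of the summit, against 51.0% in weaker distal peaks. The difference from control-strong peaks was −3.70 points (−9.83 to 1.90) at 50% GC or more, −5.28 points (−10.9985 to 0.549) in windows of 250 bp each side and, in the top 1%, 0.253 points (−14.2 to 12.5). The Sphkap sequence printed above was among the shared peaks that hold this core, 254 kb from the nearest protein-coding start. At 38.6 in control and 37.8 in Ngn3-OE its fold enrichment was close in both lists.

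For the neurogenin-type E-box the call depended on the setting. CATCTG was found in 223 of them, or 27.0% (24.1 to 30.1), against 25.1% of weaker distal peaks, a difference of 1.90 points whose interval held 0 (−1.03 to 5.04). The share was 25.2% (21.3 to 29.5) in control-strong and 30.4% (27.4 to 33.6) in Ngn3-OE-strong peaks, and the intervals of both differences held 0 (−3.44 to 6.78 and −7.75 to 0.868). In the top 10% the difference from control-strong peaks was 8.39 points, and its interval lay above 0 (5.47 to 11.2). Below 50% GC the difference from weaker distal peaks was 8.19 points (3.03 to 13.8), and at 50% or more it was −2.09 points (−5.55 to 1.72), so the sign differed between the bands. The interval also lay above 0 in the top 10% (3.62 points, 1.89 to 5.402), when ranked by −log10 q (3.79 points, 0.0206 to 7.86) and in windows of 50 bp each side (2.80 points, 0.284 to 5.61). Against Ngn3-OE-strong peaks it lay below 0 with the starts of the basic GENCODE set (−4.63 points, −8.71 to −0.532), with protein-coding starts only, beyond 1 kb of a start and at 50% GC or more. Matches lay nearer to the summit in shared peaks, at a median of 32.5 bp against 39.5 bp. Both this E-box and an OTX/CRX core were present in 68 peaks, of which Gng10 was the first in rank. The related E-box CAGCTG was found in 23.0% against 21.8%, and CACGTG, bound by the MYC and USF families, in 6.29% against 3.70% of weaker distal peaks, an excess of 2.59 points (1.12 to 4.46).

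GC boxes and CTCF consensus sites were more frequent than in weaker distal peaks. GGGCGG was found in 127 peaks, or 15.4% (13.1 to 17.97), against 6.70% of weaker distal peaks, an excess of 8.66 points (6.35 to 11.3), and against 10.1% of Ngn3-OE-strong peaks, an excess of 5.22 points (2.04 to 8.42). In control-strong peaks it was 13.4%, and the interval of the 1.94-point difference held 0 (−2.2997 to 5.86). In strong promoter peaks it was 65.4%. Below 50% GC the difference from weaker distal peaks was −0.714 points, and its interval held 0 (−1.57 to 1.42). At 50% GC or more it was 10.6 points (7.26 to 14.4). The CTCF consensus CCAN(2)AGN(2)GGC was found in 96 peaks, or 11.6% (9.60 to 13.97), against 8.81% (8.61 to 9.02), an excess of 2.80 points (0.780 to 5.17), and its share was 11.3% in control-strong and 9.56% in Ngn3-OE-strong peaks. This excess turned to −1.53 points (−4.01 to 2.08) below 50% GC and to −2.04 points (−3.93 to 0.488) when peaks were ranked by −log10 q. In the top 1% it turned to −0.518 points (−4.98 to 8.16). Each of these intervals held 0, and at 50% GC or more the excess was 5.11 points (2.43 to 8.31). The interval of the excess also held 0 in windows of 50 bp each side (0.790 points) and beyond 10 kb of a start (1.81 points). Peaks with the CTCF consensus were narrower, with a median of 206.5 against 245 bp, and their matches lay at a median of 14.5 bp from the summit, against 12.5 bp in weaker distal peaks, with 73.8% of the 103 matches within 50 bp against 88.0% there. The rank percentile was higher in Ngn3-OE for 43.8% of peaks with the consensus and 62.0% of those without. In 8 peaks the CATCTG E-box overlapped the CTCF consensus.

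**Figure D4:**
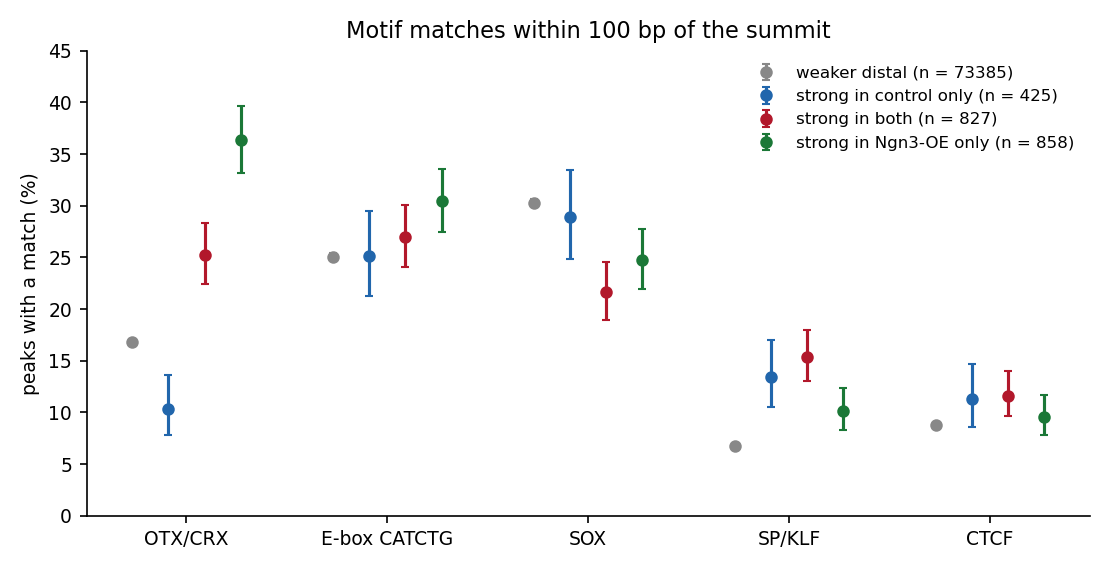
Share of peaks (%) with a match on either strand within 100 bp of the summit, for 5 motifs in the 4 distal sets. Points are shares and bars 95% Wilson intervals, and "only" in the labels means without a strong partner in the other list. The OTX/CRX share stood at 10.4% in control-strong, 25.3% in shared and 36.4% in Ngn3-OE-strong peaks.

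Of the 20 motifs searched, 6 had an excess over weaker distal peaks whose interval lay above 0, 3 lay below and 11 held 0, with no correction for the number of motifs. Beside those given, the excess lay above 0 for the pair of homeodomain half-sites TAATN(3)ATTA, in 2.42% against 1.27% (1.15 points, 0.298 to 2.44), and for the ROR site TAGGTCA, in 4.59% against 3.26% (1.34 points, 0.103 to 2.99). In control-strong peaks the homeodomain pair was found in 0.471%, a difference of 1.95 points (0.455 to 3.28). In Ngn3-OE-strong peaks it was found in 2.45%, a difference of −0.0292 points whose interval held 0 (−1.55 to 1.51). Below 0 lay, beside SOX, AP-1 (TGANTCA), in 5.08% against 6.97%, and MEF2 (CTAN(4)TAG), in 1.81% against 3.21%. The CCAAT box CCAATC, added to the search after values were seen, was found in 11.9% against 7.51%, and in 30.7% of strong promoter peaks. For ROR, AP-1, the CCAAT box and the E-box CACGTG the intervals of the differences from control-strong and from Ngn3-OE-strong peaks all held 0. For MEF2 both lay below 0, at −1.95 points (−4.32 to −0.108) from control-strong and −1.57 points (−3.17 to −0.0260) from Ngn3-OE-strong peaks. No searched motif was found in 113 of the 827 peaks, the Lmbrd1 peak among them.

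Matches to the CTCF consensus showed how the summits were placed. Over all distal control peaks the centre of the match lay at a median of 1.5 bp from the summit for the forward and 9.5 bp for the reverse orientation, towards higher coordinates, and the same values were found in Ngn3-OE. In the strong shared peaks they were −1.0 and 11.5 bp at control summits, and −1.5 and 8.5 bp at Ngn3-OE summits. These distances are small against windows of 201 bp.

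**Figure D5:**
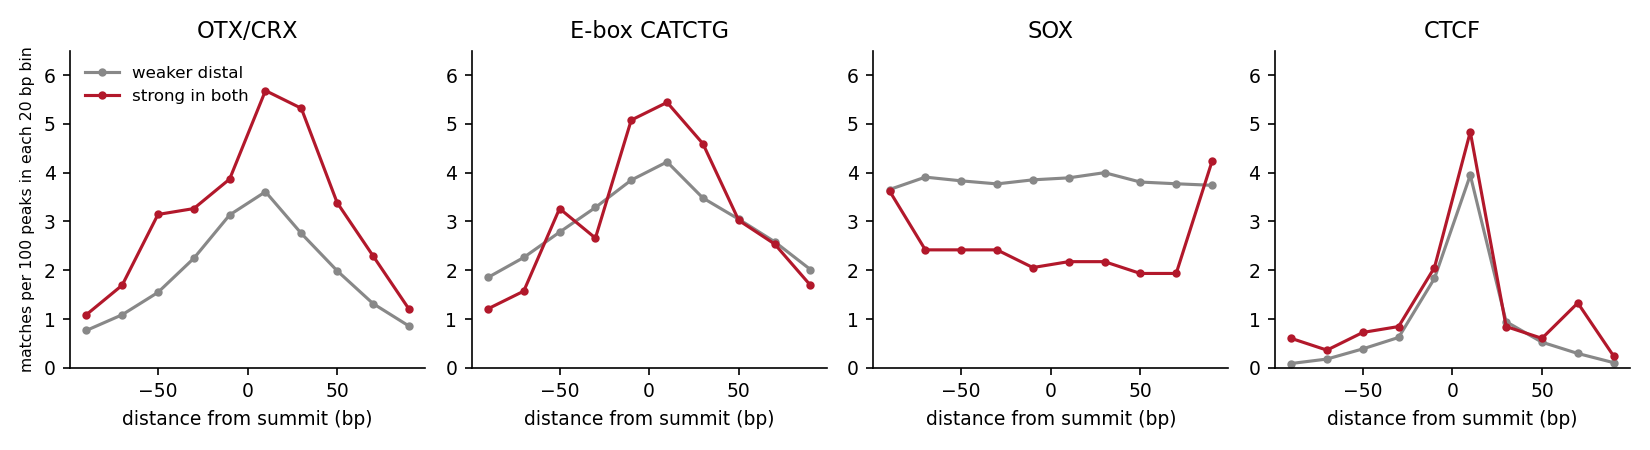
Matches per 100 peaks in bins of 20 bp by distance from the summit in bp, for 4 motifs, in weaker distal peaks (grey) and in the peaks strong in both libraries (red). OTX/CRX, CATCTG and CTCF matches gathered near the summit, while SOX matches in shared peaks did not.

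By position, 410 of the 827 peaks were intergenic, 379 lay in introns, 10 in coding and 28 in other exons. The intergenic share was 49.6% (46.2 to 53.0), against 44.1% of weaker distal peaks, a difference of 5.45 points (2.04 to 8.88), and the intronic share was 45.8% (42.5 to 49.2) against 52.2%. Control-strong peaks, at 50.1% intergenic, did not differ beyond counting error (−6.37 to 5.29 points). The median distance to the nearest protein-coding start was 26.5 kb (23.0 to 30.1), with 193 peaks within 10 kb and 157 beyond 100 kb. The farthest, nearest to Celf4, was 1757 kb away, and had fold enrichments of 24.3 and 24.5. The X chromosome held 9 peaks, 0.584% of its 1541 distal control peaks, against 0.653% on chromosome 5 and 1.40% on chromosome 12. Neighbours were a median of 1727 kb apart. Another strong shared peak lay within 50 kb for 76 peaks, and the closest pair was 5.17 kb apart.

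The peaks were scattered over many genes. Their nearest protein-coding starts belonged to 753 genes, 3.44% of the 21911 in the annotation, of which 692 were nearest to 1 peak, 50 to 2, 9 to 3 and 2 to 4. The nearest gene is a matter of distance and need not be the gene on which a region acts. The genes with 4 were 5730522E02Rik and Pde4d, a cAMP phosphodiesterase. Those of 5730522E02Rik spread over 934 kb and had fold enrichments of 37.7, 29.3, 26.3 and 24.9 in control and 44.2, 43.8, 29.2 and 26.9 in Ngn3-OE. Ngn3-OE values were the higher ones at each, and the first 2 of these peaks held an OTX/CRX core. Those of Pde4d spread over 719 kb, with 33.1, 26.4, 31.5 and 25.2 in control and 33.5, 29.0, 26.5 and 24.7 in Ngn3-OE, in no one direction. Genes with 3 peaks were Cand1, a factor of cullin ubiquitin ligases, Sorcs3, a sortilin-family receptor, Kctd8, an auxiliary subunit of GABA-B receptors, Ralgapa2 and Dlc1, which act on small GTPases, Map3k7, the kinase TAK1, Nrxn3, a presynaptic neurexin, Eipr1 and Gm9747. Snrpn, with 2, completed the 12 genes with most peaks. Pde4d was nearest to 71 distal control peaks of any strength, Nrxn3 to 67 and Snrpn to 12.

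Genes known for the retina had many distal peaks, and the share of these that was strong in both libraries was close to that of all genes. Of 109 genes in lists of retinal cell types, the Notch pathway and proneural factors, 13 were nearest to a strong shared peak, or 11.9%, against 3.44% of all protein-coding genes. These genes had 1311 distal control peaks, and 14 of these, or 1.07% (0.637 to 1.78), were strong in both libraries, next to the 1.11% of all distal peaks. The 13 genes became 8 when only peaks within 100 kb of a protein-coding start counted, and 4 when the nearest start of any kind of gene was used. For progenitor and eye field factors it was 1 of 392, for Müller glia genes 0 of 159, which allows up to 2.36%, and for proneural factors 0 of 63, which allows up to 5.75%. Genes of other tissues had 0 of 102. The Notch pathway, through which a cell instructs its neighbours to stay undifferentiated, had 5 of 139, or 3.60% (1.55 to 8.14), the highest share of the lists.

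The 5 Notch peaks lay near ligands, a receptor, the nuclear effector and a target. That of Dll1, a ligand, had a fold enrichment of 32.5 in control and 25.5 in Ngn3-OE, with 73 and 62 tags, 2 and 3 summits and a width of 399 and 465 bp. That of Jag1, also a ligand, had 25.3 and 28.8, 142 kb from the start. The peak in an intron near Notch2, a receptor, had 26.3 and 30.9 and held an OTX/CRX core. That of Rbpj, the DNA-binding effector of the pathway, had 28.9 and 28.9. That of Hey1, a bHLH repressor and target, had 26.2 and 39.3, with 43 and 79 tags, and held a CATCTG E-box, as did the Dll1 peak. The rank percentile rose from 96.3 to 99.7 at Hey1 and fell from 98.7 to 95.7 at Dll1, so the members moved in both directions.

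Most genes of retinal neurons and progenitors had none, as had most protein-coding genes, of which 3.44% had one. A strong shared peak was nearest to 1 of 18 progenitor and eye field genes (5.56%) and 2 of 19 photoreceptor genes (10.5%). It was nearest to 1 of 12 bipolar cell genes (8.33%), 1 of 12 amacrine and horizontal cell genes (8.33%) and 3 of 10 ganglion cell genes (30%). As shares of distal control peaks these were 0.255%, 1.46%, 1.06%, 0.667% and 2.75% in that order, against 1.11% over all genes. Each Wilson interval held that value. The listed genes with a strong shared peak had 1 each, save Mef2c with 2. The Sox2 peak, 164 kb upstream of the progenitor factor, had a fold enrichment of 25.7 in control and 32.4 in Ngn3-OE and no SOX core. Among retinal ganglion cell genes, Eomes had 30.2 and 30.8, Pou4f1 27.0 and 29.1 and Rbpms 24.7 and 27.9, and each was higher in Ngn3-OE by value. Over all 827 peaks the median was also higher there, at 29.6 against 27.9, and 68.1% of the peaks had more tags there. The Eomes peak held both an OTX/CRX core and a CATCTG E-box, as did that of Onecut1, a factor of horizontal cells, with 32.0 and 29.7. Trpm1, the cation channel of ON bipolar cells, had 36.5 and 27.6 at a peak 105 kb upstream. Of the photoreceptor list, Casz1 had 26.2 and 28.2, and both peaks of Mef2c lay close together in value (26.1 and 27.0 for one, 25.8 and 25.9 for the other). Fold enrichments are not normalised between the libraries, and no difference at a single peak was tested.

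A few peaks lay at the ends of the range. The largest rise in rank percentile was at a peak nearest to Gulp1, an engulfment adaptor, from 95.1 in control to 99.5 in Ngn3-OE, with 39 and 69 tags. The largest fall was at a peak nearest to Commd7, from 99.3 to 95.2, with 60 and 38 tags. Enhancers tested in mouse embryos and listed in RefSeq from the VISTA collection were overlapped by 9 peaks, or 1.09% (0.574 to 2.06), against 0.717% (0.658 to 0.780) of weaker distal peaks, with overlapping intervals. These 9 were nearest to Top1mt, Egln3, Frmd4a, Fosb, Ssbp3, Slc35f1, D5Ertd579e, Wee1 and Nedd4.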

How the data were processed

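Peak lists from 2 ATAC-seq libraries, 1 control and 1 Ngn3-OE, were analysed. Per the labels and the study's methods, the authors trimmed reads with Trimmomatic, aligned them to mm10 with Bowtie2, removed mitochondrial, blacklisted and duplicate reads (SAMtools, bedtools, Picard), shifted Tn5 ends with deepTools, kept short fragments and called peaks per library with MACS2 at a q limit of 0.05. Short fragments favour nucleosome-free DNA. The deposited ratio is the fold enrichment at the summit. The deposited −log10 p-values and q-values and the integer score are MACS2 output; the score was not analysed. Whole-number tag pileups were solved from the deposited fold and −log10 p, with a largest residual of 0.00197. Depth is given only as tags at the summit.

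Rows sharing an interval were merged, and 159 and 150 rows outside the assembled chromosomes were left out. Distances used GENCODE M21, and RefSeq starts were a check. Motifs were searched on both strands of GRCm38, 100 bp either side of the summit. Copies were found with blastn 2.17.0 (95% identity, 90% coverage), and tables were made in Python 3.11.15. The motif search, the tag pileups, the overlaps, the nearest starts and the Newcombe intervals were tested on simulated data. The other steps were not. Peaks, gene lists and motifs were chosen with earlier results of these data known. Named peaks were the first 12 by the lower rank percentile, the 12 genes with most peaks, genes of the lists, the peaks at the limits and the extremes. Sequences came from the first peak in rank with the motif within 60 bp of the summit and no copy, with peaks on chromosome 18 left out. Gulp1, Commd7, Gm9747, Batf3, Dnah7b, the tandem repeats and the VISTA overlaps were chosen after values were seen. One marker gene is not reported here.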

Additional observations from a re-analysis of the deposited data

Results flagged for a closer look

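Peaks outside the assembled chromosomes were left out of all comparisons, yet some were strong. In control, 5 of 143 such intervals passed the limit of the top 5% (3.50%), with a highest fold enrichment of 81.4, above the 56.6 of the strongest peak on the chromosomes. In Ngn3-OE, 5 of 125 passed (4.00%), with a highest value of 63.8. The limit was set to pass 5% of the intervals on the chromosomes, so neither share was high, and only the highest values stood out. No comparison used these rows, and strong ones were present in the control library as well.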

How the results depend on the processing

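No paired analysis was possible because each group had 1 library. The excess of OTX/CRX cores over weaker distal peaks and over control-strong peaks, their deficit against Ngn3-OE-strong peaks and the deficit of SOX cores against weaker distal peaks kept their direction under all alternatives run. Values that left the 95% interval first given (counts: 1.5 times) follow, with differences in points of members minus the set named. In the top 1% there were 72 peaks, 4.17% with several summits and a median GC of 55.2%. OTX/CRX differed by 3.99 (weaker distal), 2.65 (control-strong) and −18.997 (Ngn3-OE-strong), SOX by −16.3 (weaker distal) and, reversed, 0.253 (control-strong), SP/KLF by 12.6 and CTCF, reversed, by −0.518 (both weaker distal). In the top 10% there were 2635 peaks, 230 and 236 bp wide in control and Ngn3-OE, 11.99% with several summits, with a GC of 51.7%. SOX differed by −14.2 and CATCTG by 8.39 from control-strong peaks. Ranked by −log10 q there were 513 peaks, 282 and 286 bp wide, 16.4% with several summits, with a GC of 54.7%. SOX differed by −15.9 from control-strong, and SP/KLF by 14.9 and CTCF, reversed, by −2.04 from weaker distal peaks. Beyond 10 kb of a start there were 515 peaks, with a GC of 51.7% and an SP/KLF excess of 5.57. With protein-coding starts only, GC was 53.7% and that excess 12.1, and in windows of 50 bp each side it was 6.32. The lower part of the members by fold enrichment had a median width of 238 bp in Ngn3-OE. In windows below 50% GC, a split chosen after seeing the data, OTX/CRX differed by 18.4 (weaker distal), 26.7 (control-strong) and −6.13 (Ngn3-OE-strong), CATCTG by 8.19 (weaker distal) and 3.46 (Ngn3-OE-strong), and SP/KLF and CTCF, both reversed, by −0.714 and −1.53 (weaker distal). At 50% GC or more, OTX/CRX differed by 9.12 from control-strong, and SOX by −4.56 and CATCTG by −2.09 from weaker distal peaks. The interval of each value called reversed held 0. For the stricter limits fewer peaks enter, and otherwise the cause was not tested. With the basic GENCODE set there were 932 peaks, and with the added RefSeq limit 751, both also chosen after seeing the data. Both counts were within 1.5 times the 827, and medians and differences stayed within the 95% intervals first given, except the share of peaks in introns (40.7% with the basic set), while the intervals for SOX and CATCTG against Ngn3-OE-strong peaks came to lie below 0 with the basic set. That intron share was 41.7% in the top 1%, 40.6% beyond 1 kb and 37.6% with protein-coding starts only. Listed retinal genes nearest to a member numbered 0 in the top 1%, 35 in the top 10%, 8 within 100 kb and 4 with the nearest start of any gene. With pileups of a median of 55 tags in 1 library a group, differences between libraries at single peaks could not be judged.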
